A study of Mus musculus with 13 samples.

Results

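The genes described here are 60 genes of the cell cycle and of DNA replication, followed in the mouse submandibular salivary gland from mid-embryogenesis to adulthood. They were taken by gene symbol from a fixed list, and all 60 were found among the 23364 genes of the deposited expression tables. By role they comprise 13 genes of origin licensing and the replicative helicase, 5 of the polymerases and the sliding clamp, 4 of nucleotide supply, 8 G1 cyclins and kinases, and 5 S, G2 and M cyclins with Cdk1 and Cdc25c. The others are 9 mitotic kinases and spindle checkpoint genes, 10 genes of chromosomes, centromeres and the spindle, 3 transcription factors and 3 inhibitors of cyclin-dependent kinases (CDKs).

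RNA-seq was performed on whole dissected submandibular glands of C57BL/6 mice at 6 time points, with 3 samples of E14.5 and 2 of every later age (E16.5, E18.5, postnatal day P5, 4wk and 12wk). The 7 samples from E14.5 to E18.5 formed the embryonic stage, the 2 P5 samples the neonatal stage and the 4 samples of 4wk and 12wk the adult stage. The labels name no allele and no treatment. Each E14.5 sample pooled the glands of 3 animals and each E16.5 or E18.5 sample those of 2, the sex of embryos and P5 pups was not ascertained, and the 4wk and 12wk animals were male, so that age, pooling and sex cannot be told apart.

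Cells that divide first load the MCM helicase onto replication origins in G1, then fire those origins in S phase, and finally separate the copied chromosomes in mitosis. Cyclins bound to their kinases drive each of these steps, and CDK inhibitors hold them back. E2F factors control many of the genes used for replication, whereas B-MYB and FOXM1 together with the MuvB complex control many of the genes used for mitosis. In the salivary gland, branching of the epithelial rudiment before birth is accompanied by extensive proliferation, and the adult gland is known as a tissue of slow turnover.

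Expression was given as fragments per kilobase scaled to the reads of each sample (FPKM), a level per transcript length that can be compared between genes. The reads on genes ranged from 5817293 in 4wk replicate 1 to 48314162 in P5 replicate 1, and the median member was covered by 1443.5 to 4410.5 reads in the embryonic samples but by 64 and 33.5 reads at 4wk and 40 and 49 at 12wk. All 60 genes passed the filter of at least 1 FPKM in at least 1 sample, as did 14650 genes in all. However, 9 and 22 of the 60 lay under 1 FPKM in 4wk replicates 1 and 2, and 33 and 36 did so in the 12wk samples, so that adult levels are the least precise. Markers of salivary epithelium were found at every time point, with summed FPKM of 9 markers between 415 and 666 at E14.5 and between 957 and 1740.2 in all later samples. Values of samples are given in the order of their replicate numbers.

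Over the whole time course, the 60 genes were expressed in the embryo and were low in the adult gland. Their share of all reads on genes ranged from 0.616% to 1.02% before birth, was 0.325% and 0.317% in P5 glands, 0.105% and 0.0608% in 4wk glands and 0.0459% and 0.0408% in 12wk glands. The highest mean was reached at E14.5 by 30 genes, at E16.5 by 29 and at E18.5 by 1 gene, Mki67, and by none after birth.

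**Figure D1:**
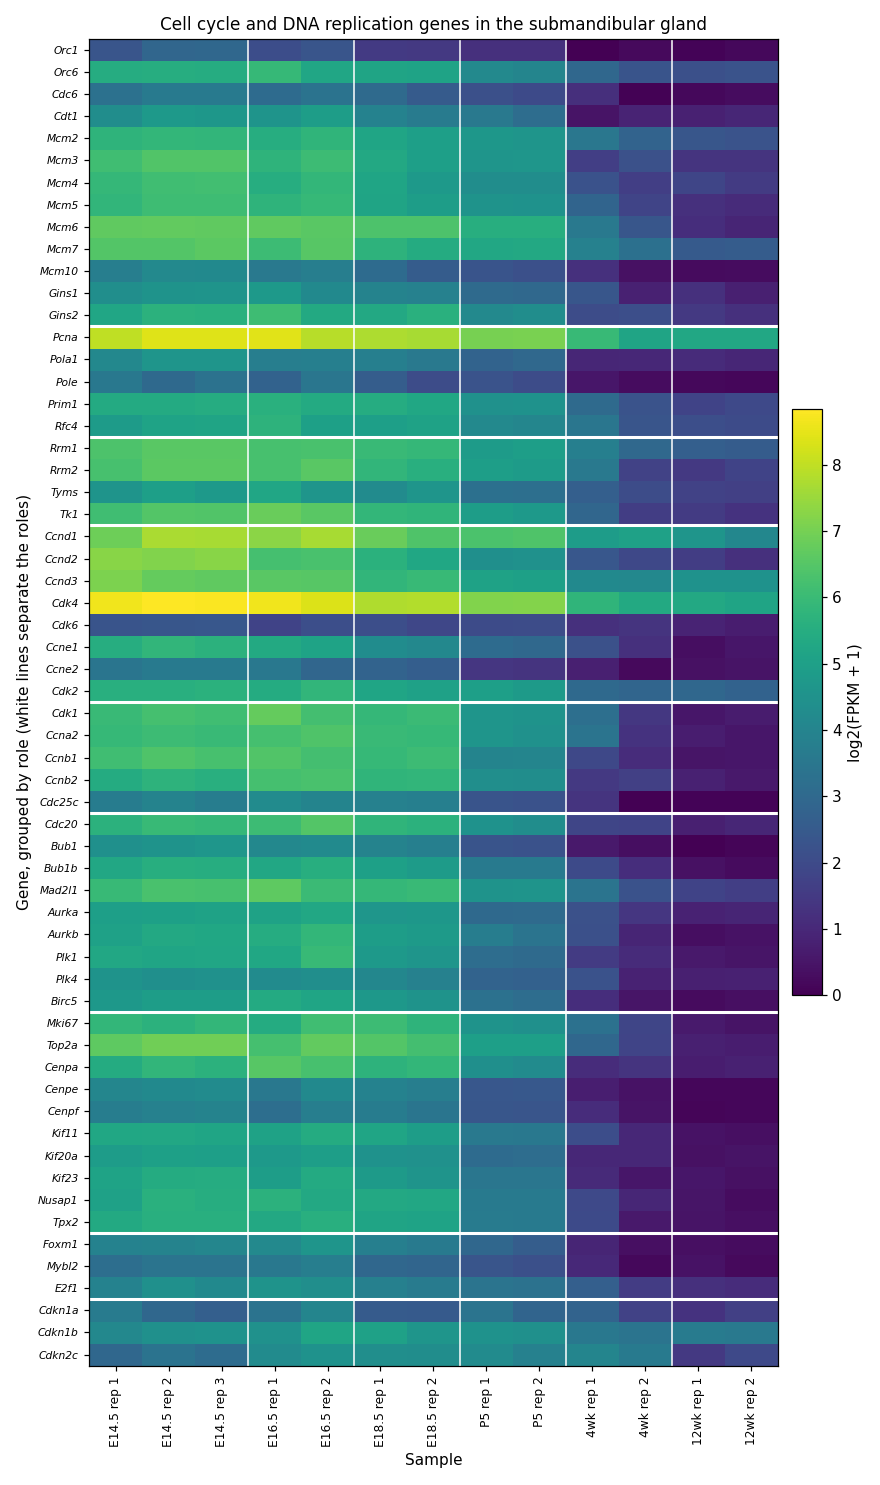
Heat map of log2(FPKM + 1) for the 60 genes (rows, grouped by role) in the 13 samples (columns, by time point). For 54 of the 60 genes the P5 columns are below every embryonic column, as for 33.8% of all tested genes. All 60 have a lower mean in the adult stage than at P5, as do 12237 of the 14650 tested genes on this scale. The 3 CDK inhibitors in the bottom rows have the smallest median change of the 9 roles between embryo and adult.

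All 60 genes passed the test as lower in the adult than in the embryonic stage, where a call needs a log2 fold change of 1 or more in size together with a limma adjusted p below 0.1. Among all tested genes 38.0% were called lower in this comparison. The median log2 fold change on the log2(FPKM + 1) scale was -3.62 for the 60 genes and -0.75 for all tested genes. Every adult sample lay below every embryonic sample for 58 of the 60 genes, all but Cdkn1a and Cdkn2c, whereas 54.1% of the tested genes had this property.

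The scale of the adult values bears on these counts, because 48.1% to 61.1% of all FPKM at 4wk and 12wk came from the 10 most abundant genes, against 5.93% to 16.501% in the embryo. After rescaling by median-of-ratios factors, the median of all genes between adult and embryo moved to -0.08 and the median of the 60 genes to -3.04. Of the 60 genes, 56 were then called lower, and Cdk6, Cdkn1a, Cdkn1b and Cdkn2c were not. Over all genes the rescaling changed the calls from 818 higher and 5567 lower to 2019 higher and 2147 lower. In whole glands, a smaller number of dividing cells and less of these RNAs in each cell cannot be told apart.

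The first group of genes prepares and runs DNA replication. The 13 licensing and helicase genes were all lower in the adult than in the embryo, with log2 fold changes from -4.58 for Mcm6 to -2.10 for Orc1 and a median of -3.14. Mcm5, a subunit of the MCM2-7 helicase located at chr8:77633427-77652338 on the plus strand of mm9, had FPKM of 56.0, 67.3 and 67.2 in E14.5 glands, 53.0 and 59.2 in E16.5 glands, 34.8 and 29.4 in E18.5 glands, 22.5 and 21.6 in P5 glands, 6.28 and 2.53 in 4wk glands, and 1.31 and 1.14 in 12wk glands. From E18.5 on, no sample reached the level of any sample of an earlier time point.

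Mcm2, another subunit of the same ring, gave 53.0, 57.1 and 55.8 FPKM in E14.5 glands, 44.8 and 54.4 in E16.5 glands, 35.6 and 31.1 in E18.5 glands, 24.4 and 23.7 in P5 glands, 10.2 and 6.04 in 4wk glands, and 4.17 and 3.83 in 12wk glands. Cdc6, the ATPase that loads the helicase onto origins, was lower in level, with 8.77, 11.1 and 11.3 FPKM in E14.5 glands, 7.47 and 9.42 in E16.5 glands, 7.22 and 4.82 in E18.5 glands, 3.44 and 3.00 in P5 glands, 1.28 and 0.0267 in 4wk glands, and 0.146 and 0.224 in 12wk glands. The 4wk samples of Cdc6 thus differed by 1.15 on the log2(FPKM + 1) scale. Orc1, the largest subunit of the origin recognition complex, had 3.98, 6.51 and 6.81 FPKM at E14.5 and at most 0.167 FPKM in the adult, with 0 reads in 4wk replicate 1. Against the embryo, the log2 fold changes in the adult were -3.93 ± 0.31 (SE) for Mcm5, -2.83 ± 0.23 for Mcm2 and -2.79 ± 0.24 for Cdc6.

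Pcna, the sliding clamp of the replicative polymerases at chr2:132074898-132079050 on the minus strand of mm9, was the most abundant of the replication genes. It had 253, 339 and 339 FPKM in E14.5 glands, 346 and 236 in E16.5 glands, 217 and 206 in E18.5 glands, 129 and 131 in P5 glands, 61.3 and 35.0 in 4wk glands, and 38.0 and 38.3 in 12wk glands. Pcna thus remained at a clear level in the adult, where its mean of 43.1 FPKM ± 12.2 (SD, n = 4) compared with 276.6 FPKM ± 62.3 (SD, n = 7) in the embryo. The log2 fold change was -2.66 ± 0.19, with a limma adjusted p of 5.10e-08. The other 4 genes of the group, encoding catalytic subunits of DNA polymerases alpha and epsilon (Pola1, Pole), the primase subunit Prim1 and the clamp loader subunit Rfc4, fell by 2.64 (Rfc4) to 3.18 (Prim1) on the log2 scale.

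The 4 nucleotide supply genes were also all lower in the adult. Rrm2, the regulated subunit of ribonucleotide reductase, was measured at 75.5, 97.6 and 96.7 FPKM in E14.5 glands, 76.1 and 94.8 in E16.5 glands, 55.7 and 46.6 in E18.5 glands, 29.7 and 28.2 in P5 glands, 10.96 and 2.36 in 4wk glands, and 1.74 and 2.44 in 12wk glands. Tk1, the cytosolic thymidine kinase, gave 68.5, 88.9 and 86.5 FPKM in E14.5 glands, 113 and 94.1 in E16.5 glands, 56.2 and 54.4 in E18.5 glands, 29.2 and 26.6 in P5 glands, 6.53 and 2.02 in 4wk glands, and 1.91 and 1.44 in 12wk glands. Both genes decreased by over 4 on the log2 scale between embryo and adult, by 4.11 ± 0.34 and 4.47 ± 0.28, and Tyms and Rrm1 by 2.69 and 3.27.

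Since these genes moved together, their promoters were examined for E2F sites. Promoter sequence from RefSeq (GRCm38.p6) was at hand for 47 of the 60 genes, and the 250 bases before each start site were searched on both strands for the E2F site written as TTTCCCGC, TTTGGCGC, TTTCGCGC or TTTGCCGC. At least 1 such match was found in 8 of the 47 genes (17.0%), in 583 of all 27025 genes with a promoter in the table (2.16%) and in 395 of the 10624 tested genes with one (3.72%). Within the replication genes 6 of 18 had a match, namely Cdc6, Mcm5, Mcm6, Mcm7, Orc1 and Pola1. The other matches were in Cdk1 and Cdk2. The stretches around the matches of 4 of them are printed 5′ to 3′ on the strand of the gene to show how the sites lie, with E2F sites and CCAAT boxes of either strand in capitals:

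Mcm5 (chr8:75109341-75109506, plus strand): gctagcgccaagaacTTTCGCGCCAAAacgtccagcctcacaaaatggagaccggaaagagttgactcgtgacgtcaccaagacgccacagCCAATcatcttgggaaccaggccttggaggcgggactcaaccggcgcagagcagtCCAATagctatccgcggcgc
Mcm6 (chr1:128359706-128359830, minus strand): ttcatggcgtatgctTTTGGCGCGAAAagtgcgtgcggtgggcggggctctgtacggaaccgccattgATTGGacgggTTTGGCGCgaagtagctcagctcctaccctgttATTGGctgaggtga
Orc1 (chr4:108579319-108579449, plus strand): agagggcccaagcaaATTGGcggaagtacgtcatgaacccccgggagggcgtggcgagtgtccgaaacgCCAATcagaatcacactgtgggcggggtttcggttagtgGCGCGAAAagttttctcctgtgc
Cdc6 (chr11:98907998-98908035, plus strand): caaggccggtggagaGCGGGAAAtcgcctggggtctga

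In Mcm5 and Mcm6 a pair of matches overlaps on opposite strands, forming a run of 12 bases. A match is a description of the letters and shows no binding.

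The second group of genes acts from S phase to the end of mitosis. All 24 genes of the 3 mitotic roles were lower in the adult, with log2 fold changes from -5.19 to -3.12 and a median of -4.31, against -3.09 for the 22 replication genes. Ccnb1, the cyclin B1 that activates Cdk1 at entry into mitosis, changed most of the 60 genes. It lies at chr13:101548605-101556525 on the minus strand of mm9 and had 68.3, 82.8 and 76.5 FPKM in E14.5 glands, 86.0 and 73.2 in E16.5 glands, 59.9 and 65.8 in E18.5 glands, 14.8 and 15.1 in P5 glands, 2.75 and 1.19 in 4wk glands, and 0.416 and 0.440 in 12wk glands. From P5 on, each time point was separated from the one before, and the adult mean was 1.20 FPKM ± 1.09 (SD, n = 4) against 73.2 ± 9.35 (SD, n = 7) in the embryo.

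Cdk1, the kinase that drives mitosis, was present at 61.9, 74.0 and 69.2 FPKM in E14.5 glands, 107 and 72.7 in E16.5 glands, 58.5 and 64.3 in E18.5 glands, 23.1 and 22.2 in P5 glands, 8.47 and 1.67 in 4wk glands, and 0.449 and 0.603 in 12wk glands. Ccna2, the cyclin A2 of S and G2 phase, followed with 59.0, 66.4 and 62.3 FPKM in E14.5 glands, 74.1 and 83.5 in E16.5 glands, 62.3 and 59.1 in E18.5 glands, 23.3 and 20.9 in P5 glands, 9.54 and 1.43 in 4wk glands, and 0.652 and 0.450 in 12wk glands. For both genes the lowest embryonic value was 58.5 FPKM or more and the 12wk samples were under 1 FPKM. Ccnb2 and Cdc25c, a second B-type cyclin and the phosphatase that activates Cdk1, fell by 4.69 and 3.53 on the log2 scale, and Cdc25c had 0 reads in 4wk replicate 2.

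Among the mitotic kinases, Plk1, which acts in centrosome maturation and spindle assembly, had 38.2, 36.1 and 37.0 FPKM in E14.5 glands, 37.7 and 61.2 in E16.5 glands, 25.8 and 23.1 in E18.5 glands, 7.83 and 7.24 in P5 glands, 1.87 and 1.14 in 4wk glands, and 0.520 and 0.399 in 12wk glands. Aurkb, the kinase of the chromosomal passenger complex, had 32.0, 39.3 and 37.9 FPKM in E14.5 glands, 43.2 and 56.4 in E16.5 glands, 29.1 and 27.3 in E18.5 glands, 12.3 and 9.65 in P5 glands, 3.43 and 0.899 in 4wk glands, and 0.258 and 0.359 in 12wk glands. Birc5, the survivin subunit of the same complex, was measured at 25.0, 29.1 and 29.5 FPKM in E14.5 glands, 41.7 and 35.5 in E16.5 glands, 25.5 and 22.4 in E18.5 glands, 8.72 and 7.99 in P5 glands, 1.21 and 0.405 in 4wk glands, and 0.188 and 0.278 in 12wk glands. These 3 genes shared a step between E18.5 and P5 at which no samples overlapped. The spindle checkpoint genes Bub1, Bub1b and Mad2l1 and the activator of the anaphase-promoting complex, Cdc20, had log2 fold changes of -3.97, -4.34, -3.89 and -4.60 between embryo and adult.

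Mki67, whose product Ki-67 coats mitotic chromosomes and is used as a marker of dividing cells, had 57.0, 50.1 and 57.2 FPKM in E14.5 glands, 42.5 and 68.9 in E16.5 glands, 65.5 and 52.9 in E18.5 glands, 22.4 and 20.9 in P5 glands, 8.84 and 2.57 in 4wk glands, and 0.564 and 0.381 in 12wk glands. Its embryonic samples overlapped across the 3 embryonic time points. Top2a, the topoisomerase that untangles sister chromatids, gave 99.6, 119 and 119 FPKM in E14.5 glands, 73.3 and 105 in E16.5 glands, 87.9 and 72.9 in E18.5 glands, 31.1 and 30.7 in P5 glands, 6.79 and 2.53 in 4wk glands, and 0.712 and 0.620 in 12wk glands. Cenpa, the centromeric histone H3 variant, ranged from 42.8 to 91.6 FPKM before birth and was 20.2 and 18.1 in P5 glands, 1.16 and 1.5 in 4wk glands and 0.651 and 0.737 in 12wk glands. Against the embryo, Top2a fell by 5.02 ± 0.34 (limma adjusted p = 3.50e-08), Cenpa by 4.91 ± 0.19 (limma adjusted p = 3.88e-10) and Mki67 by 4.26 ± 0.40 (limma adjusted p = 5.55e-07) on the log2 scale in the adult.

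**Figure D2:**
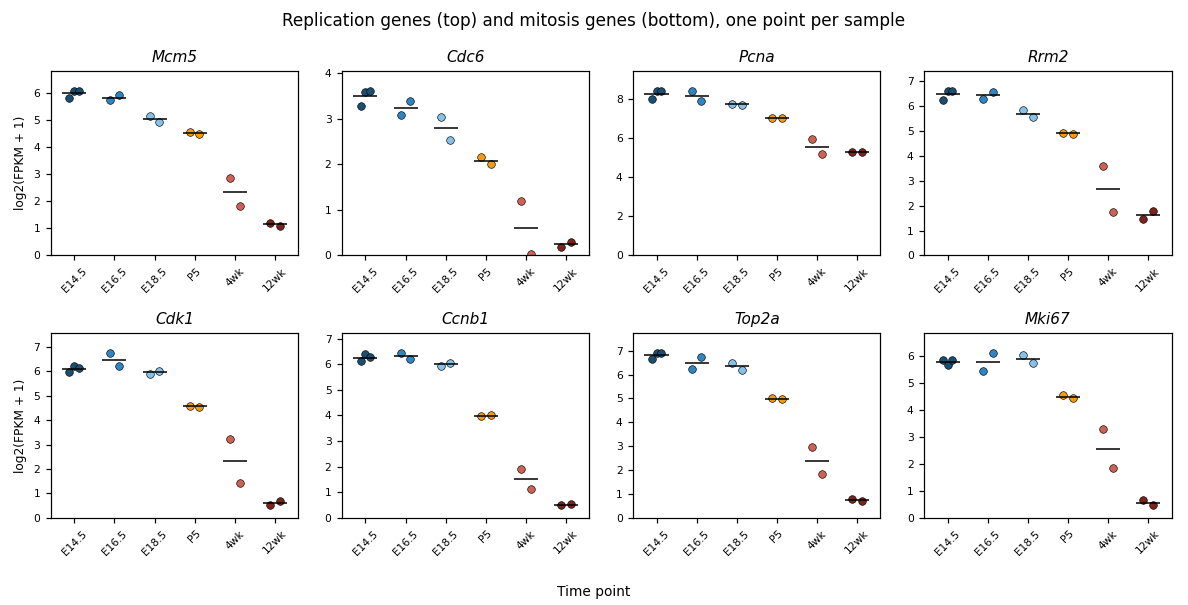
Level as log2(FPKM + 1) of 4 replication genes (top row) and 4 mitosis genes (bottom row) at the 6 time points, with 1 point per sample and the mean as a bar. In both rows the P5 points of each gene lie below all of its embryonic points, as for 33.8% of all tested genes. All 8 genes are lowest in the 4wk and 12wk samples.

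Promoters of the mitotic genes were searched for the cell cycle genes homology region (CHR), an element known to recruit MuvB complexes, and for the CCAAT box bound by NF-Y, again on both strands. The CHR was searched as TTTGAA. Its variant, which is the same on both strands, was searched as TTCGAA. The CCAAT box was present in the 250 bases before the start of 31 of the 47 genes (66.0%), against 37.5% of all genes and 40.1% of the tested genes with a promoter in the table. The CHR alone was found in 7 of 47 (14.9%), a share below the 18.3% of all genes and above the 12.8% of tested genes. A CHR or its variant together with a CCAAT box was found in 9 of 47 (19.1%) against 7.0% of all genes and 5.58% of tested genes, and 7 of the 9 were mitotic genes (Bub1b, Ccnb2, Cdc20, Cdk1, Kif11, Mki67 and Top2a; 7 of 19 searched). The others were Mcm2 and Mcm7. Of these, 4 promoter stretches are given 5′ to 3′ on the strand of the gene because they hold the pair in genes described above, with CHR elements, their variant, CCAAT boxes and E2F sites of either strand in capitals:

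Cdk1 (chr10:69352913-69353135, minus strand): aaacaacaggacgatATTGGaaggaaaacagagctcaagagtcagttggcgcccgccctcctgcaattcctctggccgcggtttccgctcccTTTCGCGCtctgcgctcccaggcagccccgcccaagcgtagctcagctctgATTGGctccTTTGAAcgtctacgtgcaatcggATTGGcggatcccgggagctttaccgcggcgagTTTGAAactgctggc
Ccnb2 (chr9:70421556-70421736, minus strand): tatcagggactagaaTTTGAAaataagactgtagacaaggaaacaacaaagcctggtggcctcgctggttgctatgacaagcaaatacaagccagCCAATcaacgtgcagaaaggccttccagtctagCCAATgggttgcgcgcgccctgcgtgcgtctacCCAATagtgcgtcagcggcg
Top2a (chr11:99024192-99024431, minus strand): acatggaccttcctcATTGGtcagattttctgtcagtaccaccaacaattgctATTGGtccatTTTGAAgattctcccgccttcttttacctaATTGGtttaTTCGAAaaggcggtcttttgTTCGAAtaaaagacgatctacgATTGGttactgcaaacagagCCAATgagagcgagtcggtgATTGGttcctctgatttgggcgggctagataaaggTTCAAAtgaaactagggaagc
Mki67 (chr7:135716457-135716582, minus strand): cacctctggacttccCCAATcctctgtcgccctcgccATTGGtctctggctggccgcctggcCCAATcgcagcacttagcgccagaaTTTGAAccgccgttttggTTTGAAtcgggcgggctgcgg

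Coordinates of these stretches are in GRCm38.p6, not in the mm9 build of the expression tables. Several CCAAT boxes stand in each of the 4, and in Cdk1 a CHR begins 71 and another 15 bases before the start.

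The time course of both groups was followed relative to E14.5. Relative to the E14.5 mean, the median of the 22 replication genes was 91.7% in E16.5 glands, 59.1% in E18.5 glands, 34.6% in P5 glands, 7.31% in 4wk glands and 3.58% in 12wk glands. For the 24 mitotic genes these values were 107%, 81.6%, 28.6%, 4.51% and 0.855%. In both groups the largest fall was that from P5 to 4wk, with a median log2 fold change of -1.76 for the replication genes and -2.11 for the mitotic genes. The difference between both groups was not tested as such, since their members are not independent replicates.

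**Figure D3:**
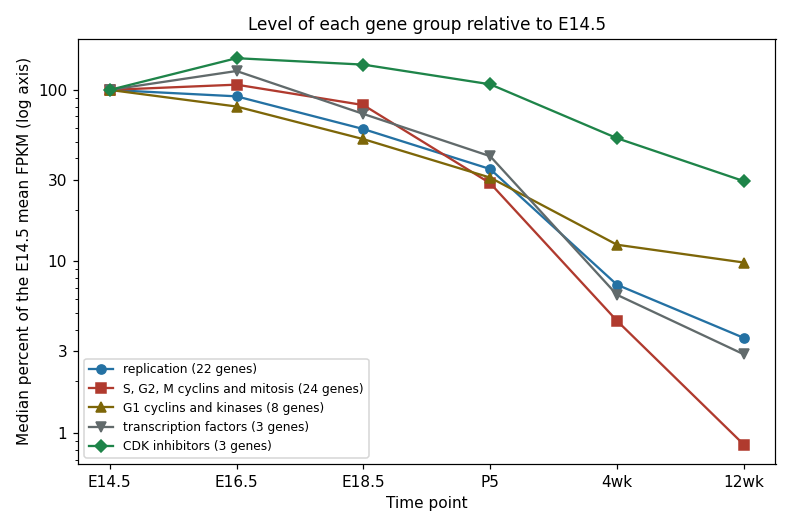
Median over the genes of each group of the mean FPKM at a time point, as a percent of the E14.5 mean of the same gene (log axis). Mitotic genes are at 81.6% at E18.5 and 0.855% at 12wk, replication genes at 59.1% and 3.58%, and CDK inhibitors at 140% and 29.4%.

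Within the embryo few genes passed the test. Between E14.5 and E16.5, only Cdkn2c was called among the 60 genes, as higher with a log2 fold change of 1.23, while 4.17% of the tested genes were called higher. None of the 60 was called lower, against 0.983% of the tested genes, but Ccnd2 was called lower (-1.01) when E14.5 replicate 2 was left out. Its log2 fold change was also -1.01 without E16.5 replicate 2. The largest changes under the threshold were those of Ccnd2 (-0.97) and of Cenpa (0.76) and Ccnb2 (0.68). From E16.5 to E18.5, 2 of the 60 genes were called lower, Ccne1 (-1.05) and Cdkn1a (-1.18), and 1.85% of the tested genes were. Neither was called after median-of-ratios rescaling, and leaving out 1 sample moved this count between 0 and 5.

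From E18.5 to P5, 31 of the 60 genes were called lower and none higher, while 2.97% of the tested genes were called lower. The 31 included all 24 mitotic genes, with log2 fold changes between -2.0 (Ccnb1) and -1.22 and a median of -1.42. After Ccnb1 the strongest decreases were those of Nusap1 (-1.68) and Bub1 (-1.62), a microtubule-bundling protein and a checkpoint kinase. Of the 22 replication genes only 4 were called, which were Orc6, Gins2, Rrm1 and Tyms, and the median of this group was -0.76. The remaining 3 called genes were the G1 cyclins Ccnd2, Ccne1 and Ccne2. After median-of-ratios rescaling, 27 of the same 31 genes were called, without Ccna2, Ccnd2, Orc6 and Rrm1. Ccna2 was also not called with an adjusted p below 0.05, with a pseudocount of 0.1 or without a filter, and Cdc25c was not with a pseudocount of 0.1. Leaving out 1 of the 4 samples compared gave 25 to 30 called genes, and Ccna2 and Cdk1 were not called in any of these 4 fits, Mki67 and Plk4 in 3 of them and Aurkb in 1.

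As an example of 1 mitotic and 1 replication gene, the ratio of Ccnb1 to Mcm5 is given without its p-value, because Ccnb1 was chosen with its change known. The mean of the FPKM ratios was 1.20 in E14.5 glands, 1.43 in E16.5 glands, 1.98 in E18.5 glands, 0.677 in P5 glands, 0.454 in 4wk glands and 0.351 in 12wk glands. On the log2(FPKM + 1) scale the ratio was -0.82 at 4wk and -0.64 at 12wk, since adding 1 to values under 1 FPKM draws both genes together. Every embryonic sample was above 0 on this scale and every postnatal sample below -0.49.

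Relative to the whole embryonic stage, 48 of the 60 genes were called lower at P5, where 8.14% of the tested genes were, and none was called higher. The P5 samples lay below all embryonic samples for 54 of the 60 genes and for 33.8% of the tested genes. The largest decreases were those of Ccnb1 (-2.21), Ccne1 (-2.10) and Plk1 (-2.10). The 12 genes that were not called were Mcm2, Mcm6, Mcm7, Pole, Prim1, Ccnd1, Cdk2, Cdk6, E2f1 and the 3 CDK inhibitors. Leaving out P5 replicate 1 lowered the count of called genes from 48 to 31. Rescaling gave 35, and it turned the calls over all genes from 606 higher and 1192 lower into 813 higher and 571 lower.

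After P5 the fall was larger and spread over nearly every role. Between P5 and 4wk, 53 of the 60 genes were called lower with 22.1% of the tested genes, at a median of -1.81 against -0.53 for all genes. The largest decreases were measured for Cenpa (-3.11), Ccnb2 (-2.78) and Mcm3 (-2.72). The genes not called were Tyms, Ccnd3, Ccne2, Cdk6 and the 3 CDK inhibitors. With median-of-ratios rescaling the count was 41 of 60, with 1278 lower and 933 higher calls over all genes in place of 3235 and 321. From P5 to the adult stage as a whole, 55 of the 60 genes and 20.8% of the tested genes were called lower. Mcm6 (-3.54), Top2a (-3.43) and Cenpa (-3.34) led this comparison, and Ccnd3, Ccne2, Cdk6, Cdkn1b and Cdkn2c were not called. All these comparisons share samples with those before, so that they are no separate evidence of one another.

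Within the adult stage, 15 of the 60 genes were called lower at 12wk than at 4wk, against 2.48% of the tested genes. The strongest decreases were those of Cdkn2c (-2.12), Mki67 (-2.01) and Mcm6 (-1.94). Called as well were Mcm5, Mcm7, Ccne1, Cdk1, Ccna2, Ccnb1, Bub1b, Mad2l1, Aurkb, Top2a, Kif11 and Nusap1. This count rested on 4wk replicate 1. A fit without either 4wk sample leaves 1 sample at that age. The share of all tested genes called in such fits is not given here, so the swing cannot be assigned to these genes. Without it only 4 genes were called, Cdkn2c, Mki67, Mcm6 and Top2a, and without 4wk replicate 2 the count was 28.

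In the 60 genes the 4wk samples differed from each other more than those of any other time point. On the log2(FPKM + 1) scale 51 of the 60 genes were higher in replicate 1, by a median of 0.68, whereas the median difference of all tested genes was 0.09. In 19 genes the difference was over 1, always with the higher value in replicate 1, and 4.42% of the tested genes were as much higher there. No gene of the 60 differed by over 1 between replicates of the other time points. The largest differences were those of Ccna2 (2.12), Rrm2 (1.83) and Cdk1 (1.83). Summed FPKM of marker genes was higher in replicate 1 as well. The sum of 10 leukocyte and lymph node markers was 37.9 in replicate 1 and 21.7 in replicate 2. Of these markers, Cd79a, Cd79b, Ms4a1 and Cd3e were among those at 0 in replicate 2, whereas Cd68 went the other way (6.99 and 7.85). The sum of 8 skeletal muscle markers was 38.9 and 1.52, and that of 9 salivary epithelium markers was 1208 and 1128. Replicate 1 was also the library with the fewest reads, and it listed 205 genes with a single read against 615 in replicate 2. The part of these in the difference was not tested.

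**Figure D4:**
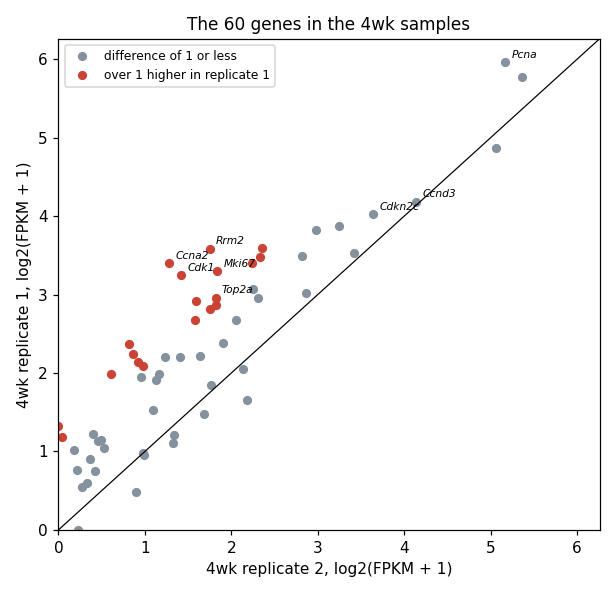
Each point is 1 of the 60 genes, with log2(FPKM + 1) in 4wk replicate 2 on the x axis and in 4wk replicate 1 on the y axis, and the line marks equal values. The 19 genes in red are over 1 higher in replicate 1, and no gene lies as far below the line.

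The G1 regulators were less uniform than the replication and mitosis genes. D-type cyclins couple mitogen signals to Cdk4 and Cdk6, and each of the 3 had its own time course. Ccnd1 (chr7:152115836-152125774, minus strand, mm9) had 118, 208 and 207 FPKM in E14.5 glands, 156 and 206 in E16.5 glands, 111 and 83.7 in E18.5 glands, 79.8 and 83.9 in P5 glands, 28.2 and 32.4 in 4wk glands, and 23.3 and 16.2 in 12wk glands. Ccnd2 (chr6:127075797-127101066, minus strand, mm9) started from a similar level with 153, 142 and 152 FPKM in E14.5 glands, but was at 73.6 and 77.3 in E16.5 glands, 49.1 and 37.9 in E18.5 glands, 20.1 and 21.2 in P5 glands, 4.23 and 2.74 in 4wk glands, and 2.06 and 1.34 in 12wk glands. Ccnd2 thus lost ground at every step, without overlap between successive time points.

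Ccnd3 (chr17:47642000-47736632, plus strand, mm9) was measured at 134, 107 and 102 FPKM in E14.5 glands, 94.3 and 92.0 in E16.5 glands, 55.5 and 61.1 in E18.5 glands, 33.5 and 31.3 in P5 glands, 17.1 and 16.6 in 4wk glands, and 21.9 and 21.5 in 12wk glands. Its 12wk samples were above its 4wk samples, while 55 of the 60 genes had a negative change there, but the log2 fold change of 0.35 ± 0.14 (limma adjusted p = 0.125) did not pass the test. Between adult and embryo the log2 fold changes were -2.56 ± 0.26 for Ccnd1, -4.66 ± 0.37 for Ccnd2 and -2.16 ± 0.21 for Ccnd3. The log2 ratio of Ccnd2 to Ccnd1 went from -0.77 ± 0.61 (SD, n = 7) in the embryo to -2.88 ± 0.29 (SD, n = 4) in the adult, a difference of -2.11 on the scale of differences of log2(FPKM + 1). An exact two-sided permutation test over 330 labelings gave p = 0.00606, the smallest that this design gave, and an adjusted p of 0.00909 over the 6 ratios examined. All 6 ratios, Ccnb1 to Mcm5 among them, were chosen with earlier results of these data known. Their p-values are therefore no independent support. These tests also treat the different ages of a stage as replicates, so that p and SD mix age with replicate spread. By time point the mean log2 ratio of Ccnd2 to Ccnd1 was -0.21 at E14.5, -1.24 at E16.5 and -1.14 at E18.5. After birth it was -1.93 at P5, -2.82 at 4wk and -2.93 at 12wk. For Ccnd3 to Ccnd1 the difference was 0.40 (exact permutation p = 0.242, adjusted p = 0.291) and did not pass.

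Of the kinases that pair with these cyclins, Cdk4 had the highest level of all 60 genes in every sample up to P5, whereas in the adult its mean of 41.9 FPKM ± 8.16 (SD, n = 4) was close to that of Pcna. It had 395, 456 and 438 FPKM in E14.5 glands, 397 and 329.5 in E16.5 glands, 220.3 and 223 in E18.5 glands, 142 and 144 in P5 glands, 53.6 and 40.0 in 4wk glands, and 39.3 and 34.7 in 12wk glands. Cdk6 was low throughout, with 3.97, 4.10 and 4.24 FPKM in E14.5 glands, 2.40 and 3.32 in E16.5 glands, 3.34 and 2.68 in E18.5 glands, 3.03 and 3.17 in P5 glands, 1.32 and 1.53 in 4wk glands, and 0.853 and 0.627 in 12wk glands. Cdk6 at P5 lay within the range of the embryonic samples. Their log2 ratio, Cdk6 to Cdk4, was -6.27 ± 0.39 (SD, n = 7) in the embryo and -4.37 ± 0.24 (SD, n = 4) in the adult, a difference of 1.91 (exact permutation p = 0.00606, adjusted p = 0.00909). Adding 1 to the low adult values of Cdk6 enlarges this difference. Without it, the mean FPKM ratio was 0.00957 at E14.5, 0.00806 at E16.5 and 0.0136 at E18.5. After birth it was 0.0216 at P5, 0.0314 at 4wk and 0.0199 at 12wk, so that 12wk was not above P5.

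Cyclin E activates Cdk2 at the start of S phase. Ccne1 had 44.995, 55.1 and 50.5 FPKM in E14.5 glands, 40.5 and 33.9 in E16.5 glands, 18.6 and 16.3 in E18.5 glands, 7.52 and 6.84 in P5 glands, 3.60 and 1.35 in 4wk glands, and 0.258 and 0.450 in 12wk glands, without overlap between successive time points. Ccne2 had 9.90, 11.4 and 11.3 FPKM in E14.5 glands, 10.5 and 6.59 in E16.5 glands, 6.04 and 5.19 in E18.5 glands, 1.65 and 1.5 in P5 glands, 0.695 and 0.156 in 4wk glands, and 0.328 and 0.372 in 12wk glands. At 12wk both E cyclins were near the same low level. Their log2 ratio, Ccne2 to Ccne1, changed by 1.29 between embryo and adult (exact permutation p = 0.00606, adjusted p = 0.00909), but by 0.85 with an adjusted p of 0.309 when the pseudocount was 0.1, so that the call depends on how values under 1 FPKM are scaled. Cdk2 itself kept 46.9, 46.1 and 49.6 FPKM in E14.5 glands, 42.5 and 55.2 in E16.5 glands, 35.9 and 32.3 in E18.5 glands, and 31.1 and 27.2 in P5 glands, and dropped to 7.14 and 6.30 in 4wk glands and 6.75 and 5.80 in 12wk glands. Its step after P5 amounted to -1.96 ± 0.15 on the log2 scale, whereas that from E18.5 to P5 was -0.22 ± 0.15 and was not called.

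**Figure D5:**
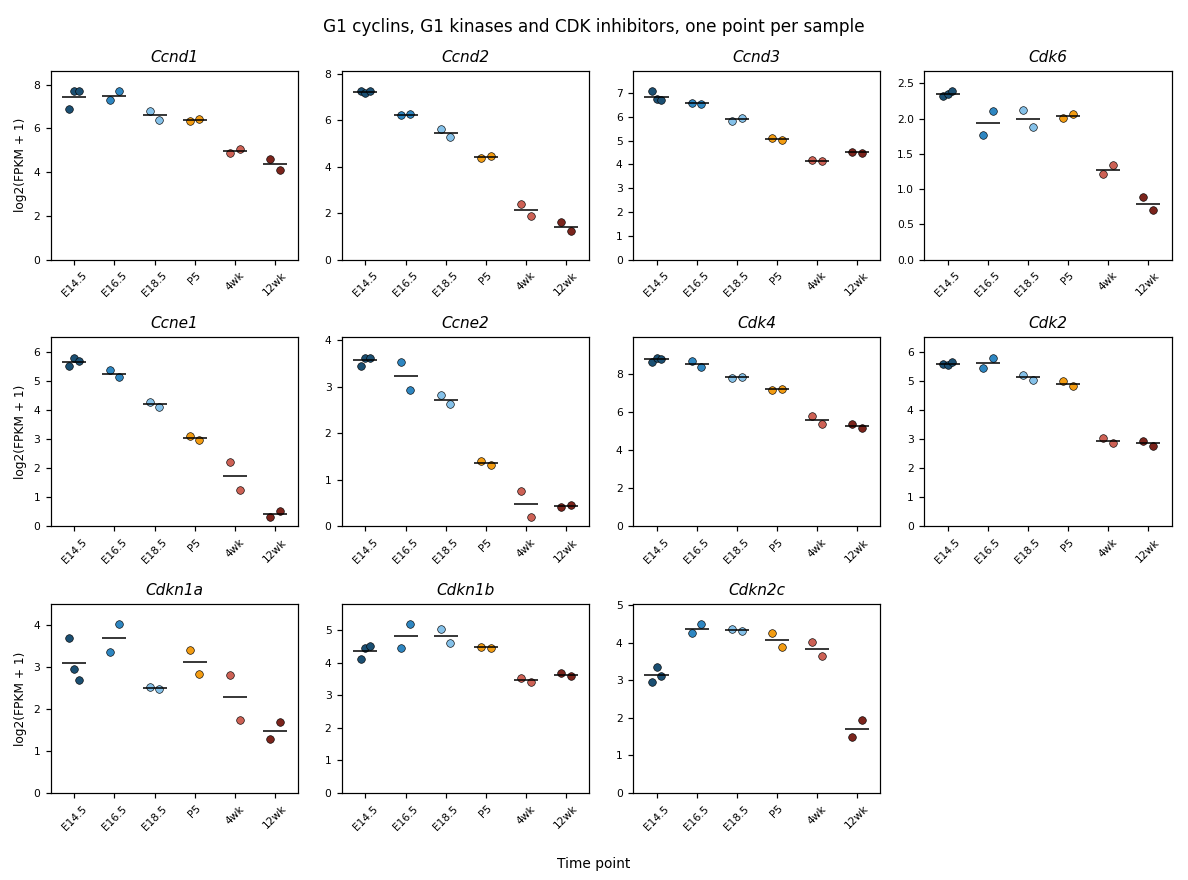
Level as log2(FPKM + 1) of 8 G1 cyclins and kinases and 3 CDK inhibitors at the 6 time points, with 1 point per sample and the mean as a bar (axes differ between panels). Ccnd2 and Ccne1 decline at every time point, Ccnd3 is lowest at 4wk, and Cdkn2c is above its E14.5 samples from E16.5 to 4wk and below them at 12wk.

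The transcription factors E2f1, Mybl2 and Foxm1 were all lower in the adult than in the embryo and none was called between E18.5 and P5. All 3 had negative log2 fold changes at that step, from -0.96 for Foxm1 to -0.40. Foxm1 was thus just under the threshold. It was called lower with a pseudocount of 0.1 (-1.06) but not after median-of-ratios rescaling (-0.81). Foxm1 had 14.3, 14.6 and 15.8 FPKM in E14.5 glands, 16.7 and 23.6 in E16.5 glands, 13.2 and 11.5 in E18.5 glands, 6.68 and 5.10 in P5 glands, 0.866 and 0.288 in 4wk glands, and 0.283 and 0.226 in 12wk glands. Mybl2, which encodes B-MYB, had 8.18, 9.51 and 9.48 FPKM in E14.5 glands, 10.7 and 12.6 in E16.5 glands, 6.70 and 6.34 in E18.5 glands, 4.03 and 3.41 in P5 glands, 1.02 and 0.136 in 4wk glands, and 0.359 and 0.162 in 12wk glands. E2f1 had 14.2, 20.6 and 17.4 FPKM in E14.5 glands, 22.3 and 19.7 in E16.5 glands, 13.52 and 11.7 in E18.5 glands, 9.53 and 9.07 in P5 glands, 5.38 and 1.99 in 4wk glands, and 1.34 and 1.19 in 12wk glands. All 3 had their highest mean at E16.5, and their log2 fold changes between adult and embryo were -3.55 ± 0.18, -2.84 ± 0.20 and -2.49 ± 0.26.

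The CDK inhibitors had the smallest median change between embryo and adult of the 9 roles. Cdkn1a, the p21 inhibitor at chr17:29227924-29237667 on the plus strand of mm9, had 11.9, 6.72 and 5.45 FPKM in E14.5 glands, 9.22 and 15.3 in E16.5 glands, 4.78 and 4.61 in E18.5 glands, 9.66 and 6.13 in P5 glands, 6.02 and 2.36 in 4wk glands, and 1.43 and 2.2 in 12wk glands. Its replicates were far apart at most time points, and adult and embryonic samples overlapped. Cdkn1b, the p27 inhibitor at chr6:134870419-134875531 on the plus strand, had 16.3, 20.8 and 21.8 FPKM in E14.5 glands, 21.0 and 35.4 in E16.5 glands, 31.9 and 23.2 in E18.5 glands, 21.5 and 20.8 in P5 glands, 10.5 and 9.67 in 4wk glands, and 11.8 and 11.01 in 12wk glands. The 4 adult samples of Cdkn1b were close together and below all others.

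Cdkn2c, the p18 inhibitor of Cdk4 and Cdk6 at chr4:109333481-109339794 on the minus strand, followed another course. It had 6.75, 9.31 and 7.64 FPKM in E14.5 glands, 18.2 and 21.6 in E16.5 glands, 19.8 and 19.0 in E18.5 glands, 18.1 and 13.9 in P5 glands, 15.2 and 11.5 in 4wk glands, and 1.78 and 2.86 in 12wk glands. It was the only member called higher between successive time points, with a log2 fold change of 1.23 ± 0.19 from E14.5 to E16.5 (limma adjusted p = 0.00175). It then was not called at any step until 12wk, where it fell by 2.12 ± 0.21 (limma adjusted p = 1.15e-04), a call that was kept without either 4wk sample. Between adult and embryo Cdkn1a, Cdkn1b and Cdkn2c had log2 fold changes of -1.22 ± 0.34, -1.07 ± 0.18 and -1.07 ± 0.47, all called, but -0.47, -0.18 and -0.25 after median-of-ratios rescaling, when none was called. The ratio of Cdkn1b to Cdkn1a differed by 0.15 between adult and embryo, with p = 0.745 in the exact permutation test (adjusted p = 0.745).

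Other genes of the cell cycle outside the 60 were examined in 3 lists. Of 34 further replication genes 33 were called lower in the adult than in the embryo, led by Uhrf1 (-3.97) and Hells (-3.91), at a median of -2.48. All 39 further mitosis genes were called lower, led by Ube2c (-5.11) and Cdca8 (-4.33), at a median of -3.64. Of 28 tested genes of cell cycle control 19 were called lower, at a median of -1.25, led by Cdkn1c (-8.03) and Skp2 (-3.38). Among all tested genes 38.0% were called lower in this comparison. No gene of these lists was called higher. From E18.5 to P5, 4 of 34 replication genes, 28 of 39 mitosis genes and 1 of 28 control genes were called lower. The share of all tested genes called lower at this step was 2.97%, and the control genes were near it.

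Cdkn1c, the imprinted p57 inhibitor of CDKs from the same family as Cdkn1a and Cdkn1b, had the largest change of these lists. Its FPKM was 1358, 928 and 914 in E14.5 glands, 784 and 757 in E16.5 glands, 423 and 383 in E18.5 glands, 295 and 318 in P5 glands, 2.04 and 1.81 in 4wk glands, and 1.75 and 1.61 in 12wk glands. The largest step was that between P5 and 4wk, with a log2 fold change of -6.72 ± 0.18 (limma adjusted p = 3.51e-10). Btg1 and Btg2, which encode antiproliferative proteins, were the only genes of the 3 lists called higher at any step, by 1.13 and 1.19 on the log2 scale from E14.5 to E16.5.

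Markers of other cell types of the gland changed over the same time. The summed FPKM of 8 mesenchymal markers ranged from 1879 to 2729.9 before birth, was 1643 and 1811 in P5 glands and ranged from 259.97 to 525.9 in the adult, and 7 of the 8 were called lower in the adult than in the embryo. For 5 endothelial markers the sum was between 101 and 127 in the embryo and between 24.1 and 42.4 in the adult, and all 5 were called lower. Among all tested genes 38.0% were called lower in the adult than in the embryo. The 8 markers of skeletal muscle summed to between 199 and 1319 FPKM at E14.5 and E16.5 but to at most 44.2 from E18.5 on, and 8 markers of red blood cells to between 78.0 and 3083 in the embryo with Hba-a1 at 0 in every sample. Markers of leukocytes and lymph node were highest at P5, with sums of 56.0 and 66.0 against 16.52 to 27.2 in the embryo. Of these 10 markers 7 were called higher at P5 than at E18.5, as were 303 of the 14650 tested genes, while the 31 members were called lower. Their part in the levels of the 60 genes was not tested.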

How the data were processed

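RNA was extracted from submandibular glands, and the authors sequenced 50 bp single-end reads, mapped them to mm9 with TopHat2 2.0.13 and Bowtie2 2.2.6, counted them on UCSC genes with featureCounts without multi-mapping reads, and deposited FPKM. Their methods describe a median normalization between samples. However, 1 read was worth a fixed amount in each sample, all 20268 genes above 0 gave whole reads (tolerance 0.0001), and these summed to 99.9994% to 100.002% of the totals, so that the FPKM are scaled to each total. Median-of-ratios factors were 1.15 to 1.38 in the embryo, 1.03 and 1.09 at P5, and 0.617 to 0.714 in the adult.

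Genes that reached 1 FPKM in any sample were fitted as log2(FPKM + 1) with limma 3.58.1 (mean-variance trend, R 4.3.3) over all 13 samples, with 6 time points or 3 stages as groups and Benjamini-Hochberg adjustment over all tested genes. The fit was tested on simulated data. A fold change on this scale understates changes of low genes. Genes were called at the thresholds of the study. Levels are per gene and not per isoform. Ratios of 2 genes were compared by exact permutation tests. The 60 genes, their roles, the lists, the ratios and the genes given sample by sample were chosen with earlier results of these data known. Named in each comparison were the 3 called members with the largest changes in each direction, and for the other lists the 2 largest changes. The labels only number the replicates, and the paper describes them as biological. E14.5 replicates 2 and 3 were the closest pair, but their reads still differed by more than counting noise (chi-square of 6.12 per degree of freedom), and all were kept. Alternatives were another pseudocount, filters, scaling, threshold, no trend, a replicate block, averaged time points, each sample left out, and voom on recovered reads, the last chosen after the data were seen.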

Additional observations from a re-analysis of the deposited data

Results flagged for a closer look

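In each stage with 4 to 10 samples, the highest and the lowest sample of each of the 60 genes were compared with the rest by Dixon's criterion. Of 120 gene and stage pairs 9 were flagged. Chance flags about 1 in 20, or 6 of 120, where samples come from the same population. Here each stage pools time points at which these genes differ, and the genes move together. The value of 6 is therefore only a rough guide. In E16.5 replicate 1, Rfc4 (51.3 FPKM) and Cdk1 (107 FPKM) stood above the other 6 embryonic samples. In 4wk replicate 1, Pcna (61.3 FPKM), Rrm2 (10.96 FPKM), Plk4 (3.73 FPKM), Tpx2 (2.95 FPKM), Cdc25c (1.51 FPKM), Mcm10 (1.33 FPKM) and Foxm1 (0.866 FPKM) stood above the other 3 adult samples. All 7 flags of the adult stage thus fell on the same library.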

How the results depend on the processing

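Calls of members kept their direction in every setting tried. Between E16.5 and E14.5, Ccnd2 was not called in the main fit but was called lower without E14.5 replicate 2 (-1.01). Without E16.5 replicate 2, which leaves 1 sample at E16.5, its log2 fold change was also -1.01. Apart from the counts given here, each was within 1.5 times its main value. Between 12wk and 4wk, 29 members were called with a pseudocount of 0.1 in place of 15, and leaving out 1 sample gave 4 to 28. Between E18.5 and E16.5, where 2 were called, the count was 1 with an adjusted p below 0.05, with a pseudocount of 0.1 or without a filter, 0 after median-of-ratios rescaling, and 5 with voom on recovered reads (1 with median-of-ratios library sizes, both chosen after seeing the data), and 0 to 5 when 1 sample was left out. Leaving out 1 sample gave 1 to 2 between E16.5 and E14.5 and 31 to 49 between P5 and embryo. The difference of Ccne2 to Ccne1 was 0.85 with a pseudocount of 0.1 (adjusted p = 0.309). The difference of Cdkn1b to Cdkn1a, 0.15, was -0.03 without E14.5 replicate 1 and -0.089 without 12wk replicate 1, within a range of -0.089 to 0.47. Replicate numbers did not pair the samples (mean correlation of deviations -0.0158 for equal and 0.0118 for unequal numbers). With the replicate block 1 member was called between E18.5 and E16.5 and 44 between P5 and embryo, and all other counts were as before. The causes were not tested. Shares of all tested genes called in these settings are not given here, so the changes of the counts cannot be assigned to the members. Depth limits the adult values most: 8 members had under 10 reads in 4wk replicate 2.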
